A study of Mus musculus with 18 samples.

Results

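The response of Klf3 knockout macrophages to lipopolysaccharide (LPS) was read from 6 of the 18 arrays of the series, the 3 arrays of knockout (KO) cells given LPS for 8 h set against the 3 arrays of KO cells given vehicle for 8 h. Arrays were assigned to these groups by their titles, and no measured value entered the choice. The cells were bone marrow-derived macrophages of male FVB/NJ mice aged 10 to 14 weeks, cultured for 7 to 10 days in medium holding 20% L929-conditioned medium, which supplies the growth factor M-CSF. For the experiment this medium was taken off and replaced by medium without it, with LPS at 100 ng/mL or with phosphate-buffered saline as the vehicle, so both groups of KO cells had also spent 8 h without L929-conditioned medium. The other groups used were KO cells harvested at 0 h and wild-type (WT) cells at 0 h, after LPS and after vehicle. They were of the same strain, sex and age and had 3 arrays each. WT cells at 0 h entered only the normalization, the choice of probe sets and the estimate of spread. Which part of Klf3 was deleted is not given, nor whether the 3 arrays of a group came from separate animals or cultures, so p-values measure the spread between these samples only.

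LPS is a component of the outer membrane of Gram-negative bacteria. Macrophages sense it through CD14, MD-2 and TLR4, whose adaptors MyD88 and TRIF switch on NF-kB, AP-1 and interferon regulatory factors. The early wave of transcripts encodes cytokines, chemokines and feedback inhibitors, and interferon-beta made in that wave acts back on the cells to raise interferon-stimulated genes. Klf3 encodes a zinc finger protein of the Krüppel-like family that binds CACCC-type sequences and mainly represses its targets.

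All 13 macrophage markers, among them Adgre1 (F4/80), Csf1r (the M-CSF receptor) and Cd68, lay above the nonspecific level in all 3 LPS and all 3 vehicle arrays of KO cells. The nonspecific level is the 95th percentile of 23 control probe sets on the same array, between 13.9 and 19.1 normalized units on these 6 arrays. Of the 11 T, NK and B cell markers, 2 or 3 lay above it in each of these 6 arrays. Of the 7 dendritic cell markers only the actin-bundling Fscn1 lay above it, after LPS. Klf3 was read by 6 probe sets. One of them gave 9.08, 6.83 and 8.44 units in KO LPS arrays, all at or under the nonspecific level, and 294, 134 and 141 units in WT LPS arrays. The brightest probe set, which stood for the gene, gave 132, 105 and 109 units in KO LPS arrays and 135, 175 and 67.7 units in KO vehicle arrays, a log2 change of -0.03 (adjusted p = 0.957), and whether it lies in the deleted part is not given. This probe set gave 704, 457 and 538 units in WT LPS arrays. A further one gave 44.3, 36.7 and 46.7 units in KO LPS arrays and 350, 303 and 281 units in WT LPS arrays. Another gave 216, 176 and 165 units in KO LPS arrays and 388, 419 and 294 units in KO vehicle arrays, a log2 change of -0.98 (adjusted p = 0.0267), against 176, 166 and 129.6 units in WT LPS arrays and 121, 226 and 116 units in WT vehicle arrays. The remaining probe sets gave 63.0 to 64.4 and 18.7 to 22.0 units in KO LPS arrays, against 73.5 to 117 and 18.9 to 25.1 units in WT LPS arrays. Vehicle replicate 3 of the KO cells stood apart from the other 2 vehicle arrays. It differed from both by at least 2-fold, in the same direction, for 223 of the 9286 genes above the nonspecific level in all 3 vehicle arrays, against 12 and 4 genes for vehicle replicates 1 and 2 and 8 to 22 genes for single LPS arrays. Mitosis genes were high in it, with a median of 0.68 on the log2 scale above the vehicle mean, against -0.41 and -0.30 in the other vehicle arrays. Values without that array are given for some of the results that it moves. For other genes in which it lay apart, among them Ccl7, Cyp27a1, Slc2a1 and Hmox1, only values with it are given. LPS and vehicle arrays also lay in different rows of the array plate, and the log2 signal of the 5' relative to the 3' control probe set of Gapdh, a measure of RNA integrity and labelling, was -0.41, -0.49 and -0.40 after LPS and -0.14, -0.15 and -0.30 after vehicle. Plate row and treatment cannot be told apart, and the part of RNA quality in the results was not tested.

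LPS changed the expression of 5895 of 17097 genes in KO cells, 34.5% of those tested, at an adjusted p below 0.05 (limma, Benjamini-Hochberg adjustment). Of these, 2375 genes (13.9%) were higher and 3520 (20.6%) were lower after LPS. Rises were fewer but larger. At least 16-fold changes were reached by 111 rising and 35 falling genes, while changes of at least 2-fold were more often falls, with 1447 falling and 972 rising genes. The LPS and vehicle arrays did not overlap for 7785 genes (45.5%), and this held for 2288 of the genes called higher and 3426 of those called lower. Without vehicle replicate 3, 2280 genes were higher and 3328 lower. Values are intensity on a log2 scale after quantile normalization, 1 probe set for each gene.

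**Figure D1:**
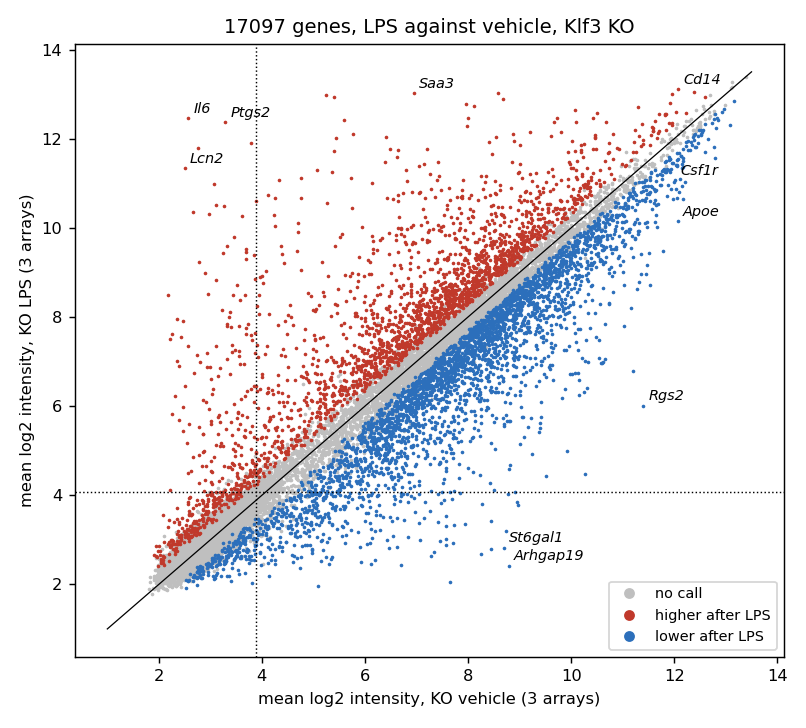
Each point is 1 of 17097 genes, with the mean log2 intensity of 3 KO LPS arrays on the vertical axis and of 3 KO vehicle arrays on the horizontal axis. Red points (2375) were higher and blue points (3520) lower after LPS, and dotted lines mark the mean nonspecific level of each group. Rising genes reach much farther from the diagonal at low vehicle intensity than falling genes do elsewhere.

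Signal appeared and disappeared for defined sets of genes. A group of 114 genes lay at or under the nonspecific level in all 3 vehicle arrays and above it in all 3 LPS arrays, and all 114 were called higher. Of them, 101 were also at or under the level in all 3 arrays of KO cells at 0 h, and 13 were above it in at least 1 array at that time. In the opposite direction, 187 genes were above the level in all vehicle arrays and in no LPS array, and 165 of them were called lower. Both groups were picked on the same arrays that gave the calls, which favours a call. At 0 h, 142 of these 187 genes were above the level in all 3 KO arrays. Another 6379 genes were above the level in no LPS and no vehicle array, and 296 of them were nevertheless called (160 higher, 136 lower), so calls on dim genes are to be read with their intensity.

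The 12 largest rises, ranked after setting dim values to the nonspecific level, were in Il6, Ptgs2, Cd40, Il1a, Il1b, Ccl5, Lcn2, Il12b, Cxcl1, Cxcl10, Mmp14 and Cd69. Il6, the cytokine that drives the hepatic acute phase response, gave 5375, 5665 and 5895 units in LPS arrays, against 4.76, 5.79 and 7.67 units in vehicle arrays. The 3 vehicle values lay under the nonspecific level, so Il6 rose at least 379-fold (fitted log2 change 9.89 ± 0.38 SE, adjusted p = 1.12e-11). Ptgs2, the inducible cyclooxygenase that feeds prostaglandin synthesis, gave 4899, 5477 and 5508 units in LPS arrays and 9.67, 5.92 and 15.9 units in vehicle arrays. Only 1 of those vehicle values exceeded the nonspecific level, and the fitted log2 change was 9.09 ± 0.48 (adjusted p = 5.17e-10). Il1a, an alarm cytokine of the interleukin-1 family, stood at 3393, 3769.7 and 3409 units after LPS and at 4.97, 6.85 and 8.94 units after vehicle, a rise of at least 237-fold (log2 9.03 ± 0.36, adjusted p = 1.41e-11). Only called genes whose LPS and vehicle arrays did not overlap entered the rankings of rises and falls. The gap between the groups in the plot of the largest changes is therefore a condition of the choice.

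**Figure D2:**
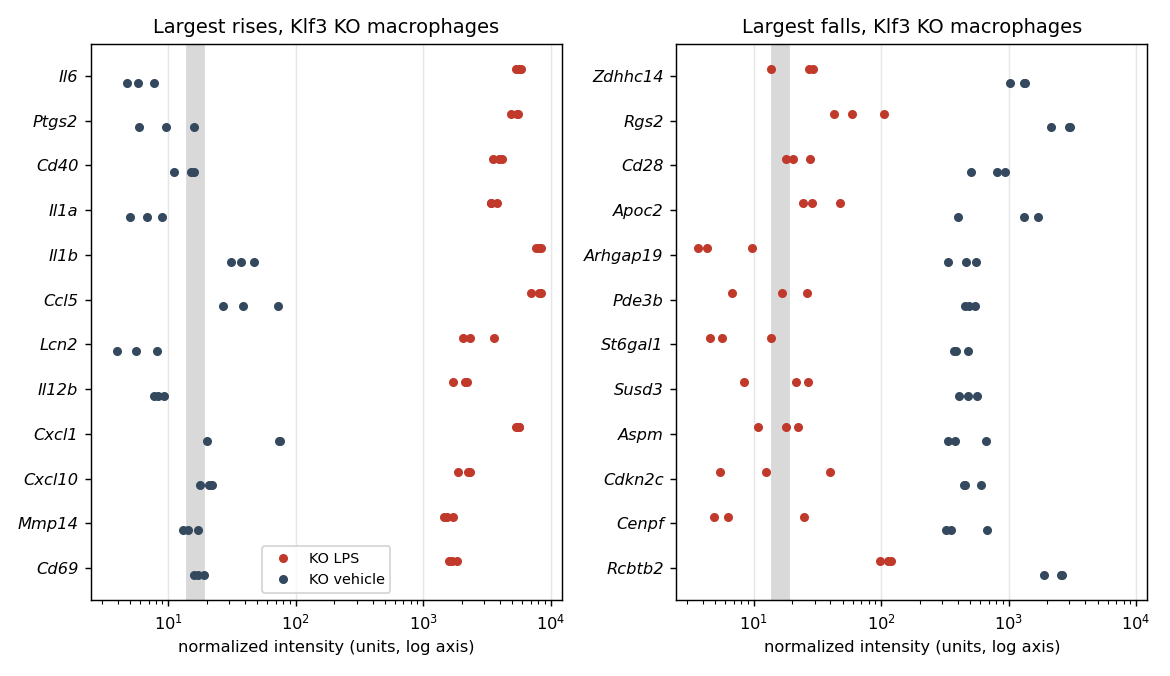
Normalized intensity on a log axis for the 12 largest rises (left) and the 12 largest falls (right) in KO cells, 1 point per array, with LPS arrays in red and vehicle arrays in dark blue. The grey band is the range of the nonspecific level, 13.9 to 19.1 units. Lack of overlap between LPS and vehicle points was a condition for entering either set. Apoc2 and Cxcl1 show 1 low vehicle array, replicate 3.

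Among the other large rises, Cd40, the receptor for T cell help, gave 3500.2, 3921 and 4122 units in LPS arrays and 11, 16 and 15.2 units in vehicle arrays (log2 8.11 ± 0.37). Lcn2, which withholds iron from bacteria by binding their siderophores, gave 3594, 2056 and 2323 units after LPS and 5.57, 3.98 and 8.13 units after vehicle, a rise of at least 174-fold. Il12b, the p40 subunit shared by IL-12 and IL-23, gave 2139, 1722 and 2207 units after LPS and 7.65, 8.35 and 9.33 units after vehicle, at least 135-fold higher. Mmp14, a membrane-anchored collagenase, was among the tightest, at 1453, 1547 and 1702 units in LPS arrays and 17.2, 13.1 and 14.2 units in vehicle arrays (log2 6.73 ± 0.16, adjusted p = 1.93e-13). Cxcl1, a neutrophil attractant, gave 5305, 5632 and 5599.9 units after LPS and 75.2, 74 and 20.0 units after vehicle. Its log2 change of 6.84 became 6.21 without vehicle replicate 3.

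The 12 largest falls were in Zdhhc14, Rgs2, Cd28, Apoc2, Arhgap19, Pde3b, St6gal1, Susd3, Aspm, Cdkn2c, Cenpf and Rcbtb2. Rgs2, which shortens Gq-coupled receptor signalling, stood at 105, 59.2 and 42.9 units in LPS arrays and at 2995, 3005 and 2156 units in vehicle arrays (log2 -5.38 ± 0.24, adjusted p = 6.64e-11). Arhgap19 fell to 3.64, 4.3 and 9.69 units in LPS arrays, all under the nonspecific level, against 459, 557 and 336 units in vehicle arrays, which is at least 26.3-fold lower. St6gal1, which adds sialic acid to N-glycans, gave 5.68, 4.54 and 13.7 units after LPS and 482, 374 and 389 units after vehicle, at least 24.5-fold lower. Neither gene had signal above the nonspecific level after LPS. A second probe set of St6gal1 also fell, by 1.93 on the log2 scale, and 2 further probe sets of Rgs2 fell by 5.27 and 1.41. Apoc2, an activator of lipoprotein lipase, gave 28.5, 47.3 and 24.5 units after LPS and 1711, 1323 and 403 units after vehicle. Its vehicle arrays spread widely, and its log2 change of -4.92 became -5.55 without vehicle replicate 3. Cd28, Aspm, Cenpf and Cdkn2c encode a T cell co-stimulatory receptor, a spindle pole protein, a kinetochore protein and an inhibitor of CDK4 and CDK6.

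Promoter windows are shown for Il6, Ptgs2 and Il1a, 3 of the 4 largest rises, and for Rgs2, one of the 2 largest falls, so that the letters before genes that moved in opposite directions can be set side by side. Each runs from 250 bases before to 50 bases after an annotated start in RefSeq on GRCm38.p6. Windows were found for 13605 of the 17097 genes. Both strands were searched for GGGNNTTTC and GGAANTTCC (forms of the NF-kB site), TTCNNTTTC (the core of an interferon response element), TGANTCA (AP-1), TGACGTCA (the cyclic AMP response element) and TATAAA (the TATA box), and capitals mark every match.
Il6, chr5:30012864-30013163, plus strand: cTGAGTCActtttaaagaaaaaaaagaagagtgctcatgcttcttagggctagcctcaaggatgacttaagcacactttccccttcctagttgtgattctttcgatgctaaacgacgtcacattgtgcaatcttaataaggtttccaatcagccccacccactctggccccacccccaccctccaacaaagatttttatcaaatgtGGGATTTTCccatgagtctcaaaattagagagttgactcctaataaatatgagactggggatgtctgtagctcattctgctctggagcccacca
Il1a, chr2:129309923-129310222, minus strand: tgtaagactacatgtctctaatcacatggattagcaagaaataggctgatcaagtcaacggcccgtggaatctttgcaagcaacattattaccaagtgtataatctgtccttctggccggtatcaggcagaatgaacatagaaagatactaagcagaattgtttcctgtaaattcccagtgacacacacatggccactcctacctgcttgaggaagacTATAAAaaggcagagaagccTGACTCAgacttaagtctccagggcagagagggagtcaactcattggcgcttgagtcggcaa
Ptgs2, chr1:150099781-150100080, plus strand: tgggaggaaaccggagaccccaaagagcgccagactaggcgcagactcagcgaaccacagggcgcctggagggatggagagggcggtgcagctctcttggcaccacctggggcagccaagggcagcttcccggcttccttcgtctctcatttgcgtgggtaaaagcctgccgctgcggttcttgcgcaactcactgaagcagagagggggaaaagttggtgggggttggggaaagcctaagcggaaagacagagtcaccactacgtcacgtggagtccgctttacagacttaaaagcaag
Rgs2, chr1:144004100-144004399, minus strand: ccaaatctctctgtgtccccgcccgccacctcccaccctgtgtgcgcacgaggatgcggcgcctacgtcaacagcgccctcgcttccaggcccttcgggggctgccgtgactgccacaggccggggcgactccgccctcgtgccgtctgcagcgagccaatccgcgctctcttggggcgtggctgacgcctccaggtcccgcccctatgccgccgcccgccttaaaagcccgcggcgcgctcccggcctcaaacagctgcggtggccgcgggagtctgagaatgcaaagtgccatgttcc
The Il6 window held an NF-kB form centred at -40 and an AP-1 form centred at -246, relative to the start. The Il1a window held a TATA box at -30 and an AP-1 form at -9. Neither the Ptgs2 nor the Rgs2 window held any of the 6 patterns, nor did the windows of Apoc2 and Oasl1, which says only that these letters do not occur there. Matches did not overlap each other in these windows.

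Over all genes that rose at least 4-fold, 433 windows were available for 319 of 406 genes. TTCNNTTTC occurred in 15.7% of them, in 5.42% of 406 windows of genes that fell at least 4-fold and in 7.35% of the 17065 windows of all genes tested. GGGNNTTTC occurred in 7.62% of windows of rising genes, 3.94% of falling genes and 4.30% of all genes, and GGAANTTCC in 2.54%, 0.739% and 0.985%. TGANTCA occurred in 13.6%, 7.39% and 6.51% of windows, TATAAA in 65 of 433, 32 of 406 and 1706 of 17065 windows, and TGACGTCA in 3.23%, 0.739% and 2.50%. Of the 28 windows of interferon-stimulated antiviral genes, 13 held TTCNNTTTC (46.4%). Genes with several starts add several windows, and these shares are a description without a test.

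Of 19 measured genes of the IL-1, IL-6, IL-10, IL-12 and IL-17 families, 15 rose and none fell, with a median log2 change of 3.93 against -0.03 over all genes (2.96 against 0.18 once dim values were set to the nonspecific level). Il1b, processed by the inflammasome into a fever-inducing cytokine, gave 7726, 8323 and 8127 units after LPS and 37.4, 31.1 and 47.4 units after vehicle (log2 7.73 ± 0.37). Its natural antagonist Il1rn rose beside it, by 6.33 ± 0.25. Il12a, the p35 subunit specific to IL-12, gave 95.6, 149 and 153 units after LPS, and Il23a, the p19 subunit of IL-23, gave 36.6, 97.8 and 119 units. Both were under the nonspecific level in every vehicle array, so the rises were at least 8.73-fold and at least 5.07-fold. Il10, an inhibitor of macrophage activation, stood low at 25.4, 17.8 and 33.9 units after LPS against 9.12, 12 and 9.65 units after vehicle, at least 1.67-fold higher (adjusted p = 0.0125).

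Of 14 TNF superfamily ligands, 7 rose and 4 fell, with a median of 0.45. Tnf gave 3451, 4981 and 4952 units after LPS and 41.2, 48.2 and 82.3 units after vehicle (log2 6.33 ± 0.32, adjusted p = 2.71e-10). Tnfsf13 (APRIL), a B cell survival factor, moved the other way, at 117, 92.9 and 107 units after LPS and 824, 731 and 588 units after vehicle (log2 -2.75 ± 0.32). Of 19 TNF receptor genes, 5 rose and 5 fell. Besides Cd40, the death receptor Fas rose by 2.39 ± 0.18. Of 17 growth factor genes, 8 rose and 4 fell. Csf2 (GM-CSF) gave 481, 846 and 548 units after LPS and 7, 6.92 and 6.58 units after vehicle, a rise of at least 40.8-fold. Inhba, the activin A subunit, was at least 34.1-fold higher and Csf3 (G-CSF) at least 14.8-fold higher after LPS. Igf1 and Vegfa fell, by 1.45 and 1.32 on the log2 scale.

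Chemokine genes rose in both main classes, 11 of 15 CC and CX3C chemokines (1 fell, median 3.50) and 8 of 11 CXC chemokines (none fell, median 4.61). Ccl5, which attracts T cells and monocytes, gave 8323, 8039 and 7028 units after LPS and 38.4, 26.6 and 72.6 units after vehicle. Cxcl10 and Cxcl11, ligands of CXCR3, rose by 6.73 ± 0.44 and 7.33 ± 0.38. Cxcl11 lay under the nonspecific level in all vehicle arrays and rose at least 85-fold. The brightest of all genes that rose at least 4-fold, by probe set intensity after LPS, was Ccl3, a chemokine that attracts monocytes, at 8574, 7875 and 8702 units after LPS and 725, 803 and 97.1 units after vehicle. Without vehicle replicate 3 its log2 change of 4.45 became 3.46. Ccl6 fell (log2 -1.05 ± 0.22). That call was lost on deposited values, with equal array medians and with equal hybridisation controls, where no gene of its list fell. Cxcl14 did not pass the test, with 203, 262 and 207 units after LPS and 253, 235 and 595 units after vehicle.

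Receptors for chemoattractants were less uniform, with 3 of 16 higher and 5 lower. Fpr2, a receptor for formylated bacterial peptides, gave 6717, 6799 and 7567 units after LPS and 238, 259 and 247 units after vehicle (log2 4.82 ± 0.15). Gpr183, which guides cells along oxysterol gradients, gave 7.39, 24.8 and 5.66 units after LPS and 172, 175 and 318 units after vehicle (log2 -4.39 ± 0.45). Ch25h, the enzyme that makes the precursor of its ligand, rose by 4.79 ± 0.57. Ccr2, the receptor for Ccl2, fell by 2.48 on the log2 scale, and by 3.45 without vehicle replicate 3, the array that overlapped the LPS arrays.

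Some of these genes had already changed in the vehicle cells relative to 0 h, so the comparison with vehicle and the level at 0 h differ. Ccl2 gave 3933, 2922 and 3567 units in KO LPS arrays, 82.4, 79.3 and 154 units in KO vehicle arrays and 1797, 1607 and 2082 units in KO arrays at 0 h. Ccl7 showed the same order, with 1682, 1115 and 1572 units after LPS, 4.42, 7.99 and 25.5 units after vehicle and 587, 612 and 1072 units at 0 h. Their large LPS changes, 5.11 and 7.21 on the log2 scale, are thus measured against vehicle levels well under those at 0 h. Klf2, a factor that restrains macrophage activation, was also lower after vehicle than at 0 h, and lower again after LPS. It gave 84.2, 77.1 and 123 units after LPS, 557, 564 and 451 units after vehicle and 2838, 1912 and 2118 units at 0 h. Some falls were measured from a vehicle level above that at 0 h. In KO arrays at 0 h Apoc2 gave 171, 323 and 145 units and Itgb5 gave 1165, 1206 and 1246 units. Both genes were higher than this after vehicle and lower than this after LPS. Not all falls were of this kind, and St6gal1 was higher at 0 h than after vehicle.

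**Figure D3:**
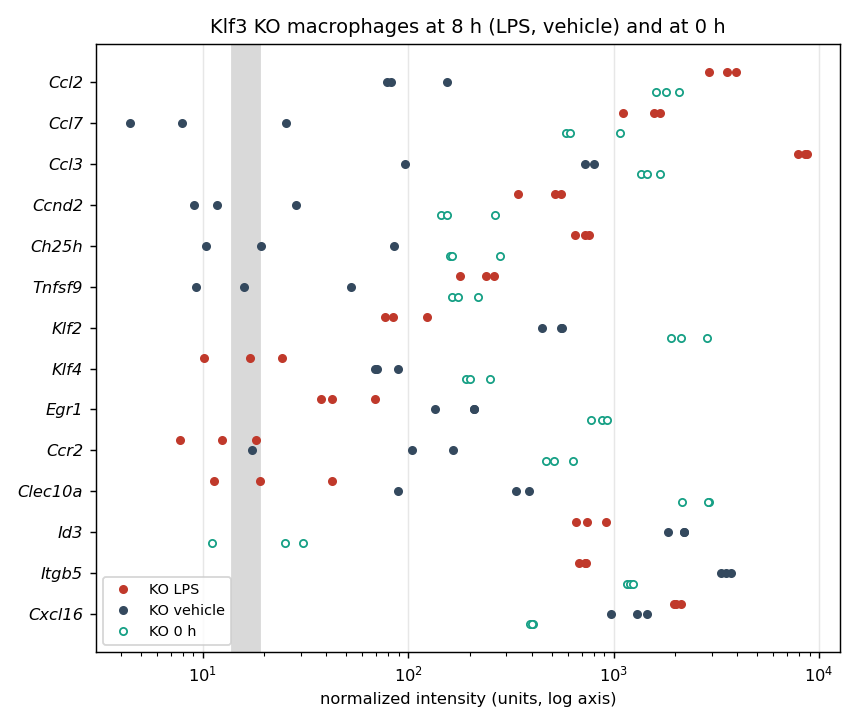
Normalized intensity on a log axis of 14 genes in KO cells, 1 point per array, after 8 h of LPS (red), after 8 h of vehicle (dark blue) and at 0 h (open green). The genes were chosen after their values were seen, to show that vehicle levels can differ from those at 0 h. Ccl2, for example, gave 79.3 to 154 units after vehicle and 1607 to 2082 units at 0 h, and the grey band is the range of the nonspecific level.

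Among the sensors, 6 of 17 Toll-like receptors and co-receptors rose and 4 fell. Tlr2, which reads bacterial lipoproteins, gave 2823, 2832 and 3086 units after LPS and 1242, 1289 and 845 units after vehicle, and its partner Tlr1 rose by 2.65 ± 0.14. Tlr4, the LPS receptor itself, fell slightly, to 385, 326 and 354 units after LPS against 595, 535 and 470.1 units after vehicle (log2 -0.58 ± 0.16, adjusted p = 0.00897). Its co-receptor Cd14 rose to 8702, 8702 and 9061 units, against 4007, 3976 and 5044 units after vehicle (log2 1.03 ± 0.12). Ly96 (MD-2) did not pass the test (0.41, adjusted p = 0.0521). Of 16 cytosolic sensors 12 rose and 2 fell, with a median of 2.11. Zbp1, a sensor of Z-form nucleic acids, rose by 4.31 ± 0.45 and Nlrp3, the inflammasome sensor, by 2.71 ± 0.16. Sting1, the adaptor downstream of cGAS, fell to 41, 47.3 and 32.8 units against 321, 316 and 267 units after vehicle. The inflammasome adaptor Pycard also fell (log2 -0.90 ± 0.15).

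Of 18 adaptors and kinases of the pathway, 11 rose and 3 fell, and all 10 NF-kB subunits and IkB proteins rose (median 1.80). Nfkb2 gave 2304, 2084 and 2093 units after LPS and 165, 178 and 163 units after vehicle (log2 3.68 ± 0.20), whereas Rela rose by 0.45 ± 0.10. Nfkbia, the inhibitor that NF-kB itself induces, gave 5732, 5558 and 5558 units after LPS and 1529.9, 1489.7 and 1119 units after vehicle. Irak3, a kinase-dead brake on MyD88 signalling, rose by 3.08 ± 0.19. Peli2, an E3 ligase of the IRAK complex, gave 13.6, 14.1 and 6.1 units after LPS and 195, 177 and 143 units after vehicle, at least 10.1-fold lower.

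Of 19 brakes and mRNA decay factors, 10 rose and 6 fell. Socs3 and Socs1, inhibitors of JAK kinases, gave 2832, 2004 and 2775 units and 408, 438 and 517 units after LPS. After vehicle Socs3 gave 30.8, 33 and 37 units, and Socs1 gave 12.2, 8 and 6.53 units, under the nonspecific level. Tnfaip3 (A20) and Zc3h12a (Regnase-1) rose by 3.18 ± 0.21 and 3.23 ± 0.20. The mRNA decay factors Zfp36l1 and Zfp36l2 moved the opposite way. Zfp36l1 gave 123, 134 and 142 units after LPS and 2309, 2277 and 803 units after vehicle (log2 -3.61, and -4.11 without vehicle replicate 3), and Zfp36l2 fell by 2.81 ± 0.25. Among 16 dual-specificity phosphatases and Sprouty genes 6 rose and 3 fell, with Dusp2, an inactivator of ERK and p38, up by 3.46 ± 0.31 and Dusp1 not passing the test (-0.68, adjusted p = 0.0619).

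Transcription factor genes split. Of 25 AP-1, ATF, C/EBP, EGR and NR4A genes 11 rose and 6 fell at 8 h. Nr4a3 gave 53.4, 143 and 161 units after LPS and 7.07, 6.01 and 6.2 units after vehicle, at least 7.19-fold higher, while the immediate early genes Fos and Egr1 fell by 1.94 ± 0.29 and 1.91 ± 0.36. Of 14 interferon regulatory factors and STATs, 7 rose and 4 fell. Irf7, which amplifies interferon production, gave 2082, 1446 and 1792 units after LPS and 162, 88.9 and 84.1 units after vehicle (log2 4.04 ± 0.28). Irf8, a myeloid lineage factor, fell by 1.21 ± 0.14. With deposited values 4 genes of that list rose, and with equal hybridisation controls 4 rose and 2 fell. The number of falls was 1 without LPS replicate 2 and 2 without vehicle replicate 2. Of 24 macrophage and KLF factors, 13 fell and 4 rose (median -0.68). Klf2 and Klf4 fell by 2.49 ± 0.25 and 2.23 ± 0.29, Maf by 1.78 ± 0.21 and Pparg by 1.42 ± 0.32, whereas Tfec rose by 2.46 ± 0.16. Of 20 chromatin regulators 9 fell, among them the Polycomb methyltransferase Ezh2 (log2 -2.48 ± 0.36), and 3 rose.

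Interferon-stimulated antiviral genes rose almost without exception, 27 of 28 measured with none lower and a median of 2.85. Oasl1, a repressor of Irf7 translation, gave 2008, 2207 and 2496 units after LPS and 32.9, 20.1 and 29.5 units after vehicle (log2 6.37 ± 0.31, adjusted p = 1.62e-10). Rsad2 (viperin), an antiviral enzyme that makes a chain-terminating nucleotide, gave 5319, 5820.3 and 5787 units after LPS and 425, 203 and 197 units after vehicle. Mx1 and Ifit1 rose by 5.30 ± 0.32 and 5.08 ± 0.33. Trim25, the gene of the list that did not pass, differed by 0.14 (adjusted p = 0.35). Ifnb1 itself, the interferon-beta gene, was dim, with 9.05, 25.1 and 12.1 units after LPS and only replicate 2 above the nonspecific level, and 6.58, 6.09 and 5.19 units after vehicle. All 10 guanylate-binding proteins and IRG GTPases, which attack pathogen vacuoles, rose (median 3.77), and 8 of them lay above the nonspecific level in all arrays of a group. Gbp3 gave 3588, 4133 and 4754 units after LPS and 40.7, 47 and 43.1 units after vehicle.

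Antigen presentation followed on a smaller scale. Of 14 class I processing genes 11 rose and none fell (median 0.89), for example the immunoproteasome subunit Psmb10 by 1.70 ± 0.19. Of 13 class II genes 6 rose and 1 fell, led by the invariant chain Cd74 at 306, 188 and 306 units after LPS and 59.1, 59.7 and 19.1 units after vehicle (log2 2.68, and 2.13 without vehicle replicate 3). Of 21 co-stimulatory and checkpoint genes 11 rose and 2 fell. Cd274 (PD-L1) gave 2685, 2601 and 2958 units after LPS and 189, 154 and 97 units after vehicle, whereas the checkpoint receptor Vsir (VISTA) fell by 1.92 ± 0.21. Cd80 and Cd86 did not pass the test, with differences of -0.42 and 0.84.

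**Figure D4:**
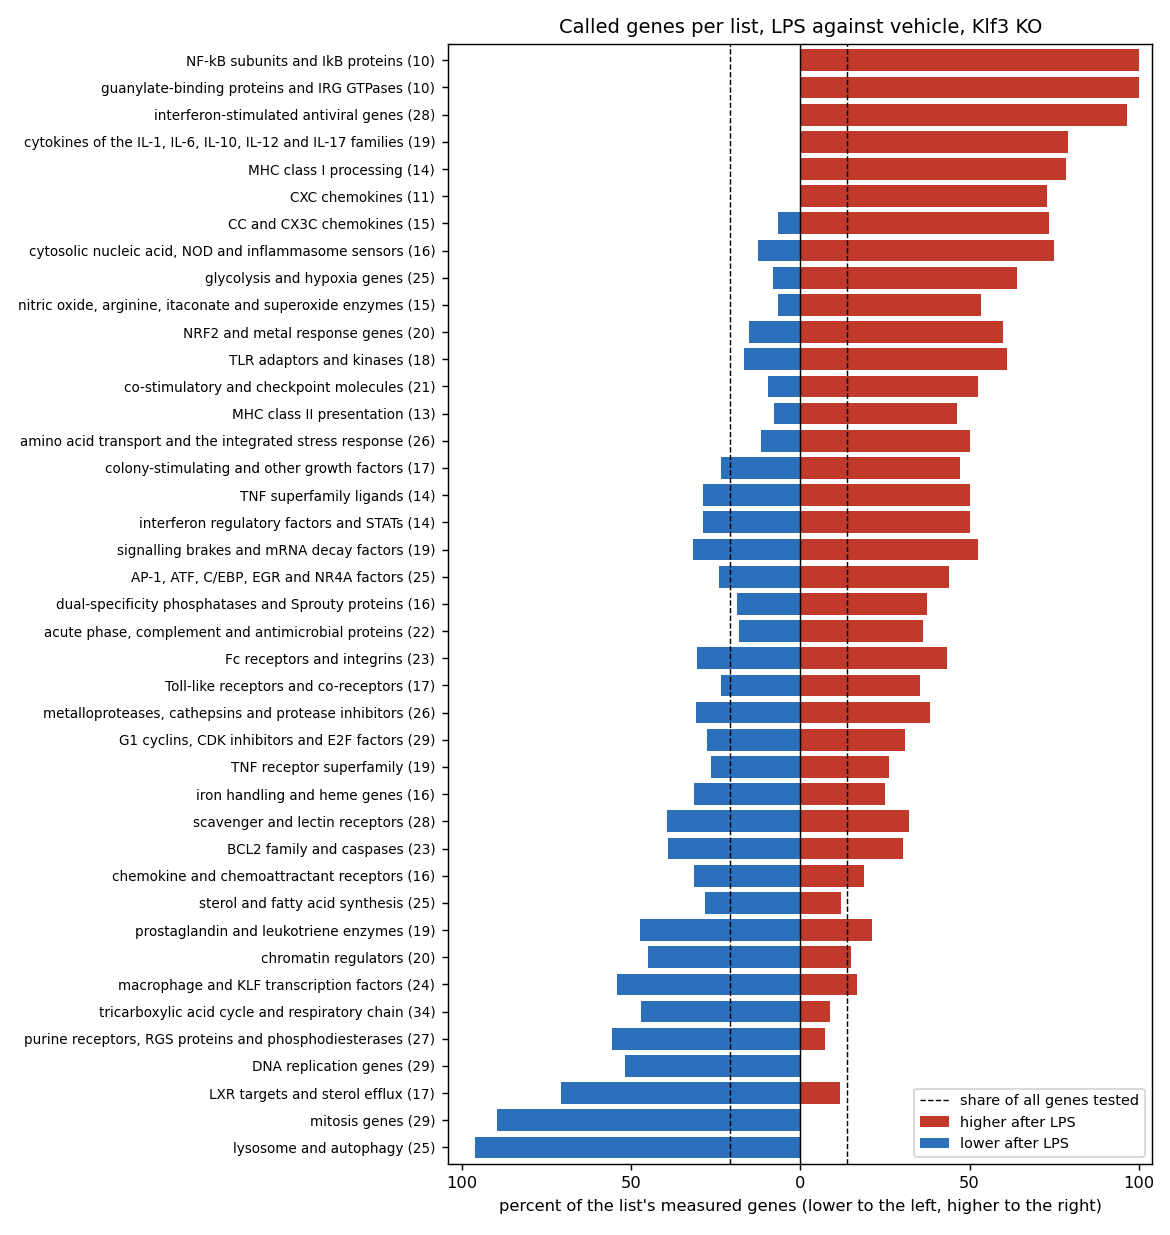
Share of the measured genes of each list shown called higher (red, to the right) or lower (blue, to the left) after LPS in KO cells, with the number measured in parentheses. Dashed lines mark the shares over all genes tested, 13.9% higher and 20.6% lower. Those genes include 6379 above the nonspecific level in no LPS or vehicle array of KO cells, of which only 296 were called. With only the 10334 genes above that level in 3 arrays tested, 2366 were higher and 3643 lower. Both shares are larger than the dashed lines show, so a bar past a line can be ordinary for genes with signal. NF-kB and guanylate-binding protein genes reach 100% higher, and lysosome genes (24 of 25) and mitosis genes (26 of 29) lead among the lower ones.

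Secreted effectors and enzymes made up a further share of the brightest rises. Of 22 acute phase, complement and antimicrobial genes 8 rose and 4 fell. Saa3 gave 9061, 7506 and 8461 units after LPS and 97.6, 84.3 and 226 units after vehicle (log2 6.08 ± 0.32), and Cfb, the alternative complement convertase subunit, was at least 52.1-fold higher. The classical complement genes C1qa and C1qb fell, and C1qb gave 59, 35.3 and 58.1 units after LPS and 505, 506 and 109 units after vehicle. Its log2 change of -2.61 became -3.35 without vehicle replicate 3. Of 15 nitric oxide, arginine and itaconate genes 8 rose and 1 fell. Acod1, which makes itaconate, gave 7278, 7377 and 8323 units after LPS and 526, 384 and 343 units after vehicle. Nos2, the inducible nitric oxide synthase, stood at 107, 100.4 and 108 units after LPS and under the nonspecific level in every vehicle array, at least 7.08-fold higher.

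In lipid mediator synthesis, Ptgs2, the terminal prostaglandin E synthase Ptges and the phospholipase Pla2g4a rose together, by 9.09, 5.40 and 2.98 on the log2 scale, while 9 of the 19 genes of that list fell. Ptges gave 1147, 1011 and 1136 units after LPS and 25.8, 20.7 and 32.8 units after vehicle. The genes that fell included Hpgds (prostaglandin D synthase), at 86, 13.7 and 53.6 units after LPS and 713, 609 and 367 units after vehicle, and the prostaglandin E receptor gene Ptger2 (log2 -2.79 ± 0.26). Alox5, Alox5ap, Ltc4s and Lta4h, which make leukotrienes, fell by 1.21 to 1.96 on the log2 scale. Of 26 protease and inhibitor genes 10 rose and 8 fell, the falls being 4 under each of the other 3 scalings. Mmp13, an interstitial collagenase, gave 5079, 4425 and 5445 units after LPS and 158, 164 and 631 units after vehicle (log2 4.29, and 4.95 without vehicle replicate 3). Timp2 fell by 2.37 ± 0.23, and the cathepsin genes that fell (Ctsb, Ctss, Ctsd and Ctsl) did so by 0.29 to 0.65.

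Surface receptors for uptake moved in both directions. Of 28 scavenger and lectin receptors 9 rose and 11 fell (median -0.13). Marco, which binds bacteria, gave 1594, 1638 and 1168 units after LPS and 8.12, 7.51 and 10.5 units after vehicle, at least 97.5-fold higher, and Olr1 was at least 12.7-fold higher. Clec4e (Mincle) rose by 2.56 ± 0.13. Trem2, a receptor for lipids and apoptotic cells, gave 456, 486 and 555 units after LPS and 2929, 2812 and 2703 units after vehicle (log2 -2.50 ± 0.20). Clec10a and Cd5l fell by 3.42 and 2.61, and by 4.10 and 3.30 without vehicle replicate 3. Of 23 Fc receptor and integrin genes 10 rose and 7 fell. The adhesion gene Icam1 rose by 3.50 ± 0.16 and the fibronectin receptor subunit Itga5 by 3.45 ± 0.36. Itga6, a laminin receptor subunit, gave 71.5, 97.3 and 83.5 units after LPS and 994, 966 and 885 units after vehicle, and Itgb5, the brightest gene after vehicle among falls of at least 4-fold, gave 677, 724 and 731 units after LPS and 3730.0, 3546 and 3347 units after vehicle.

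Genes of purine and cyclic nucleotide signalling mostly fell, 15 of 27 with 2 higher and a median of -0.51. Entpd1 (CD39), which removes extracellular ATP, lay under the nonspecific level in all LPS arrays at 6.98, 4.52 and 9.15 units against 213, 193 and 102 units after vehicle, at least 9.57-fold lower. Pde3b, a cyclic AMP phosphodiesterase, gave 26.2, 16.8 and 6.74 units after LPS and 491, 456 and 547 units after vehicle. Pde4b, another enzyme of that kind, moved the other way, with 889.8, 778 and 895 units after LPS and 89.1, 86.9 and 61.3 units after vehicle.

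Metabolic genes moved by list. Of 25 glycolysis and hypoxia genes 16 rose and 2 fell (median 0.63). The glucose transporter Slc2a1 gave 3875, 3844 and 3461 units after LPS and 397, 372 and 925 units after vehicle (log2 2.85 ± 0.27). The lactate exporter Slc16a3 rose by 2.86 ± 0.34, while Gapdh and Pkm did not pass the test. Of 34 tricarboxylic acid cycle and respiratory chain genes 16 fell and 3 rose, with small changes (median -0.22). The largest falls were in Suclg2 (1.19) and Idh1 (1.16), and Cycs rose by 1.53 ± 0.19. That count depends on scaling, with 6, 6 and 3 falls on deposited values, with equal array medians and with equal hybridisation controls. Of 26 amino acid transport and integrated stress response genes 13 rose and 3 fell. Slc7a11, the cystine importer, gave 1033, 1481 and 1300.2 units after LPS and 16.8, 18.6 and 21.6 units after vehicle (log2 6.06 ± 0.26), and the sulfiredoxin Srxn1, also an NRF2 target, rose by 2.44 ± 0.21. Of 20 NRF2 and metal response genes, 12 rose and 3 fell.

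Sterol genes were read in separate lists for efflux and for synthesis. Of 17 LXR targets and efflux genes 12 fell and 2 rose (median -1.84). Cyp27a1, a sterol hydroxylase, gave 7.25, 5.13 and 6.35 units after LPS and 232, 256 and 63.4 units after vehicle, at least 9.24-fold lower, and Abcd2 was at least 11.4-fold lower. Apoe gave 747, 1516 and 1287 units after LPS, a wide spread, and 5217, 4613 and 3301 units after vehicle (log2 -1.92 ± 0.28). Of 25 sterol and fatty acid synthesis genes 7 fell and 3 rose (median 0.04), beside 20.6% lower and 13.9% higher over all genes tested. With only the 10334 genes above the nonspecific level in 3 arrays tested, 3643 were lower and 2366 higher, which are larger shares. Fads1, a desaturase, fell by 2.76 ± 0.19, and the last-step cholesterol gene Dhcr7 by 2.21 ± 0.30. Hmgcs1, the entry enzyme of the mevalonate pathway, rose by 0.99 ± 0.30. The number of rises in this list ran from 0 without vehicle replicate 1, vehicle replicate 2 or LPS replicate 2, and 1 without LPS replicate 3, to 8 without vehicle replicate 3, and was 0 on deposited values and with equal hybridisation controls.

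Lysosome and autophagy genes fell in 24 of 25 cases, and none rose, though mostly by less than 2-fold (median -0.80). The largest falls were in Atp6v0d2, Sgsh (heparan N-sulfatase) and Lgmn, an asparagine-specific protease. Lgmn gave 624, 538 and 558 units after LPS and 3448, 3161 and 2123 units after vehicle (log2 -2.32 ± 0.17). Galns did not pass (-0.35, adjusted p = 0.158). The number of falls was 14 on deposited values, 12 with equal array medians and 10 with equal hybridisation controls. Of 16 iron and heme genes 4 rose and 5 fell, the falls being 3 under each of the other 3 scalings, 2 without any 1 of the LPS arrays or without vehicle replicate 1, and 3 without vehicle replicate 3. Hmox1, the heme oxygenase, gave 6404, 5803 and 6134 units after LPS and 1032, 1249 and 2409 units after vehicle. Hfe, a regulator of iron uptake, gave 92.7, 31.6 and 128 units after LPS and 969, 1058 and 724 units after vehicle (log2 -3.65 ± 0.44).

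Among cell cycle genes, those of mitosis mostly fell, and those of G1 moved both ways. Of 29 mitosis genes 26 fell and none rose (median -2.42), and all 29 were above the nonspecific level in the 3 vehicle arrays, 22 in the 3 LPS arrays and 2 in no LPS array. Cenpf gave 6.29, 24.8 and 4.9 units after LPS and 320.5, 353 and 675 units after vehicle (log2 -5.54 ± 0.52), and 2 further probe sets of Cenpf fell by 1.22 and 1.88. Ccna2 (cyclin A2) gave 47.1, 49.9 and 43 units after LPS and 454, 464 and 893 units after vehicle (log2 -3.62 ± 0.25). Mki67, Mad2l1 and Tpx2 did not pass the test. Mki67, the nuclear proliferation antigen, gave 1213, 1284 and 1225 units after LPS and 1139, 1232 and 2479 units after vehicle. Vehicle replicate 3 was the highest of the vehicle arrays for each of the genes named here, and without it 26 mitosis genes were also called lower.

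Of 29 DNA replication genes 15 fell and none rose (median -0.69). Rrm2, the ribonucleotide reductase subunit of S phase, gave 11.2, 22 and 4.45 units after LPS and 132, 194 and 576 units after vehicle (log2 -4.57, and -3.95 without vehicle replicate 3). Gins1, a helicase subunit, lay under the nonspecific level in all LPS arrays and was at least 4.63-fold lower. Mcm5 did not pass (0.66, adjusted p = 0.238), with 161, 162 and 149.7 units after LPS and 61.2, 71.7 and 225 units after vehicle. Without vehicle replicate 3, 10 replication genes fell and 2 rose. Of 29 G1 cyclin, inhibitor and E2F genes 9 rose and 8 fell. The CDK inhibitor genes Cdkn2b and Cdkn1a rose, Cdkn2b by 4.80 ± 0.41, Cdkn2c fell by 5.17 ± 0.64, and Ccnd2 (cyclin D2) rose by 4.99 ± 0.46. Of 23 BCL2 family, caspase and related genes 7 rose and 9 fell, with the necroptosis effector Mlkl up by 3.42 ± 0.29 and the BH3-only gene Pmaip1 down (-2.37 ± 0.63).

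Markers of macrophages and of other cells give the background to these values. Of the 13 macrophage markers 4 rose and 6 fell, and their summed level was 40962 to 42652 units in LPS arrays and 45819.9 to 46616 units in vehicle arrays. The falls were few under other scalings, 3 on deposited values, 2 with equal array medians and 0 with equal hybridisation controls. Among 11 neutrophil markers the antimicrobial peptide gene Camp rose at least 18.7-fold, S100a8 rose by 2.45 ± 0.31 and Mmp8 fell, and the granule genes Elane, Mpo and Prtn3 and the receptor gene Cxcr2 were at or under the nonspecific level in all 6 arrays. The summed neutrophil level was 661 to 830.4 units after LPS and 568 to 827 units after vehicle. Fscn1 rose at least 60-fold, and the other 6 dendritic cell markers, Flt3, Zbtb46 and Xcr1 among them, were not above the nonspecific level in all arrays of either group. The summed dendritic cell level was 775 to 1077 units after LPS and 60.1 to 66.9 units after vehicle. That rise rests on Fscn1 alone, the median log2 change of the list being -0.12. Of 10 osteoclast markers 3 rose and 2 fell, with Acp5 up by 2.28 ± 0.22 and Nfatc1 down by 2.81 ± 0.31, and a summed level of 1514 to 1790.3 units after LPS and 788 to 981 units after vehicle. The summed levels of T, NK and B cell markers were 115 to 136 units after LPS and 105 to 124 units after vehicle, those of erythroid, megakaryocyte and mast cell markers 110.3 to 134 and 115 to 132 units, and those of stromal and endothelial markers 202 to 249 and 159 to 203 units. In bulk RNA, fewer cells of a type and less RNA per cell cannot be told apart.

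Set against the response of WT cells, measured on the WT LPS and WT vehicle arrays, that of KO cells differed for 189 genes (1.11% of those tested) by the interaction contrast, 88 with a positive and 101 with a negative difference of KO minus WT. Among the 922 listed genes 50 differed, 36 positive and 14 negative. The balance of signs depends on scaling, with 278 positive and 16 negative genes on deposited values, 144 and 42 with equal medians and 112 and 10 with equal hybridisation controls. Of the 14 negative listed genes 10 were not called on deposited values. The numbers also lean on single arrays, and without WT LPS replicate 1 there were 259 positive and 238 negative differences. The WT LPS arrays were more scattered, with an SD from the group mean of 0.34, 0.28 and 0.30 on the log2 scale against 0.23, 0.23 and 0.22 for KO LPS arrays. Of the 50 listed genes, 29 passed with each of the 12 arrays left out in turn and 17 of those under every other setting as well.

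Csf2 rose in KO cells by 6.47 ± 0.19, at least 40.8-fold, and lay under the nonspecific level in all WT LPS arrays, which gave 10.0, 6.59 and 8.93 units, and the fitted difference was 6.26 ± 0.27 (adjusted p = 1.72e-09). Lif, a cytokine of the IL-6 family, gave 108, 115 and 124 units in KO LPS arrays and 8.41, 8.66 and 6.63 units in WT LPS arrays (difference 3.76 ± 0.28). Larger rises in KO cells held likewise for Il23a (3.82 ± 0.46), Inhba (3.72 ± 0.55), Il12a (3.68 ± 0.39), Nr4a3 (3.65 ± 0.47), the aggrecanase Adamts4 (3.62), the chemokines Ccl22 (3.13 ± 0.28), Cxcl5 (2.52 ± 0.39), Cx3cl1 (2.18 ± 0.29) and Ccl17 (2.12 ± 0.23), for Csf3 (2.69 ± 0.44), for the SOCS family gene Cish (2.80 ± 0.24) and for Tfec (1.31 ± 0.22). Lif, Il23a, Nr4a3 and Adamts4 were likewise at or under the nonspecific level in every WT LPS array, so the fitted differences of these genes and of Csf2 are no exact sizes. The 3 with a negative difference were Saa1, Hp and Gins1. Saa1, an acute phase apolipoprotein, gave 6.45, 4.87 and 3.7 units in KO LPS arrays, under the nonspecific level, and 209.8, 168 and 37.5 units in WT LPS arrays. Hp (haptoglobin) rose in both genotypes, by 3.64 ± 0.23 in KO cells and by 6.43 in WT cells (difference -2.79 ± 0.33). Gins1 fell in KO cells, with WT arrays at 62.9, 47.9 and 37.3 units after LPS and 61.3, 59.2 and 56.3 units after vehicle.

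**Figure D5:**
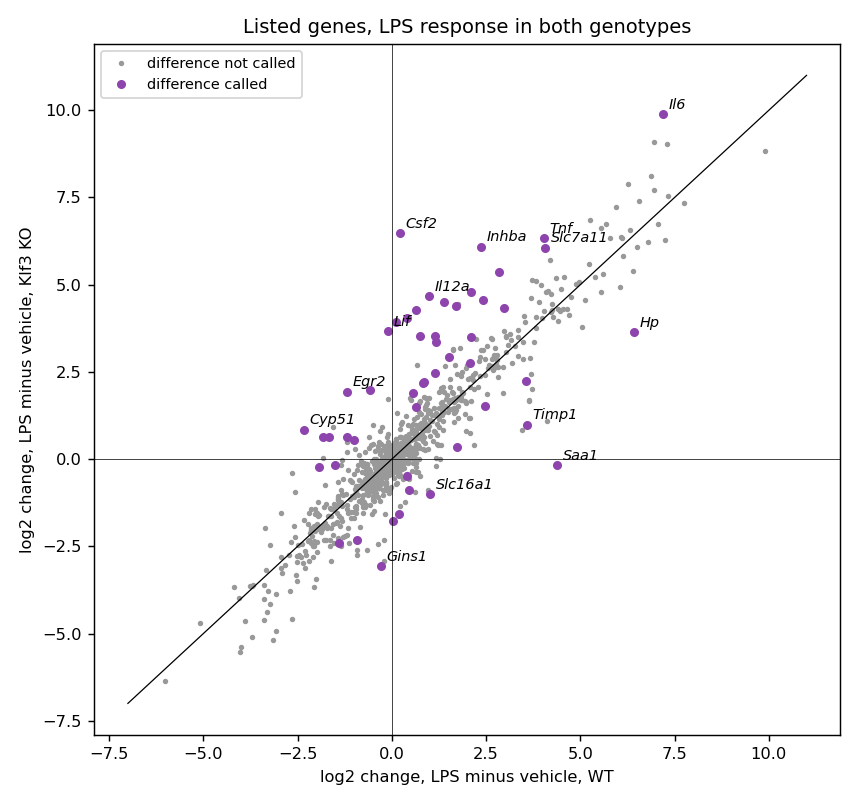
Each point is 1 of 922 listed genes, with the log2 change from vehicle to LPS in KO cells on the vertical axis and in WT cells on the horizontal axis, and the diagonal marks equal responses. Purple points are the 50 genes whose responses differed. Csf2, Lif and Il12a lie far above the diagonal, and Saa1, Hp and Timp1 below it.

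Several genes of cholesterol synthesis and its regulation were called by the same contrast. Cyp51, Idi1, Insig1, Fdft1, Srebf2 and Msmo1 did not pass the test for LPS in KO cells, with log2 changes between -0.22 and 0.85, and fell in WT cells by 1.00 to 2.32. Their differences ran from 1.55 to 3.16. Idi1 (2.47 ± 0.46), Insig1 (2.28 ± 0.43) and Msmo1 (1.72 ± 0.31) passed with any 1 array left out, but not in a fit of only the 12 arrays compared (adjusted p = 0.0769, 0.0787 and 0.0704 with limma), while Cyp51, Fdft1 and Srebf2 each lost the call in at least 4 of 12 such fits. Without KO vehicle replicate 3, Idi1, Fdft1 and Srebf2 were called higher after LPS in KO cells. A further 15 genes were called in opposite directions in the 2 genotypes with the difference called as well. Egr2, a myeloid zinc finger factor, gave 63.3, 120.0 and 114 units in KO LPS arrays and 30.3, 37 and 13.8 units in KO vehicle arrays, while in WT cells it gave 22.4, 13 and 43.4 units after LPS and 39.7, 65.5 and 58.4 units after vehicle. Nek6, a mitotic kinase, gave 275, 212 and 247 units in KO LPS arrays and 442, 447 and 546 units in KO vehicle arrays, with 709.6, 808 and 626 units in WT LPS arrays and 469, 469 and 438 units in WT vehicle arrays.

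Spread among the LPS arrays of KO cells was widest, among bright called genes, for Cited2, Fcgr1, Marveld1, Apoe and Adgrl2. Fcgr1, the high-affinity IgG receptor, gave 2078, 909 and 1489 units after LPS and 487, 389 and 294 units after vehicle, so its arrays did not overlap although LPS replicates 1 and 2 differed more than 2-fold. Cited2, a transcriptional co-regulator, gave 154, 377 and 273 units after LPS and 827, 678 and 650.2 units after vehicle. Most large changes were also seen by other probe sets of the same gene. Of 527 further probe sets above the nonspecific level for genes that rose at least 2-fold, 519 had the same direction and 421 also reached 2-fold. Of 888 such probe sets for genes that fell at least 2-fold, 841 had the same direction and 513 reached 2-fold. Abcg1, Nfatc1 and Tnfrsf22 were among the exceptions. In each, a further probe set changed by less than 1 on the log2 scale where the one used fell by more than 2.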

How the data were processed

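RNA from 18 macrophage samples was hybridised to Affymetrix HT MG-430 PM arrays, 1 array per sample. The deposited table holds linear probe set intensity, made by the authors with Partek per the submitters' processing notes, with no version or background correction stated. Of 45141 probe sets, 28898 carried 1 gene symbol, 551 several and 15588 none in the platform annotation, and 104 were controls. Intensities were log2-transformed and quantile-normalized, and each of 17097 genes was read by its brightest probe set on average over the 18 arrays. Groups were compared with limma 3.58.1 in R 4.3.3, with 1 mean per group over all 18 arrays (12 residual degrees of freedom) and Benjamini-Hochberg adjustment over all genes at 0.05. The script was tested on simulated data. The number of arrays limits the precision.

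Genes were named by rule: the 12 largest rises and falls, the brightest changed genes, members of 49 lists (942 of 1063 entries matched), genes with differing responses in KO and WT cells and the widest spread among LPS arrays. Members and lists were chosen with earlier results of these data known. The result of 1 list is not reported here. Same-numbered LPS and vehicle arrays of KO cells did not deviate together (correlations 0.020, 0.001 and -0.006), so replicate numbers were not used for pairing. Other scalings, filters, probe set means, fits and left-out arrays were tried. Promoter sequences are from RefSeq, GRCm38.p6.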

Additional observations from a re-analysis of the deposited data

Results flagged for a closer look

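Among genes named for size, brightness, opposite calls or spread, 9 differed in LPS response between genotypes (interaction contrast, limma, adjusted p below 0.05). Differences are KO minus WT on the log2 scale, and listed genes with a called difference were counted separately. Il6 differed by 2.69 (adjusted p = 0.0183), with 837, 288 and 1473 units in WT LPS arrays. Zdhhc14 differed by -2.33 (adjusted p = 0.0261) and Rcbtb2 by -1.30 (adjusted p = 0.00459), both falling in each genotype. The remaining 6 genes were named because the genotypes were called in opposite directions with the difference called. Both traits were thus fixed by the choice. Egr2 differed by 3.13 (adjusted p = 0.0194), Intu by 2.26 (adjusted p = 0.00439) and Ddhd1 by 1.76 (adjusted p = 0.018), higher after LPS in KO cells and lower in WT cells. Peak1 differed by -2.04 (adjusted p = 0.00234), Slc16a1 by -2.03 (adjusted p = 0.0152) and Nek6 by -1.60 (adjusted p = 0.000465), lower after LPS in KO cells and higher in WT cells. The difference was lost when some single arrays were left out for Il6 (4 of 12 fits), Egr2 (5), Zdhhc14 (6) and Ddhd1 (3), and for these 4 also in a fit of only the arrays compared. Zdhhc14 lost it as well on deposited values, with equal hybridisation controls and with the replicate number as a block. The other 5 lost it under at least 1 other setting: Rcbtb2 on deposited values, with both other scalings and with probe set means (adjusted p up to 0.583), Slc16a1 on deposited values, with equal hybridisation controls and with only the arrays compared (up to 0.147), Nek6 (0.262) and Peak1 (0.0718) with equal hybridisation controls, and Intu (0.162) with probe set means.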

How the results depend on the processing

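The LPS response of KO cells gave between 2016 and 2280 higher and between 3133 and 3328 lower genes when 1 KO array was left out, and up to 2596 higher and 3788 lower genes when 1 WT array was left out. With arrays scaled to equal hybridisation controls, 1211 genes were higher and 2231 lower. Scaling to equal array medians gave 2755 higher and 2974 lower genes (48.1% of calls higher, against 40.3% after quantile normalization) and moved the median of all genes to 0.09, against -0.03 on the log2 scale. With equal hybridisation controls the falls were also fewer among AP-1 and related factors (3, against 6), chromatin regulators (5, against 9) and Toll-like receptors (2, against 4), and the rises among TNF receptors (3, against 5). The difference between genotypes depended more on the processing. It held 278 positive and 16 negative genes on deposited values, 144 and 42 after median scaling, 112 and 10 after scaling to hybridisation controls, 129 and 160 among genes above the nonspecific level in 3 arrays, and 39 and 41 in a fit of only the arrays compared. Leaving out 1 array gave 54 to 259 positive and 63 to 238 negative genes, the highest of both without WT LPS replicate 1. The cause was not tested. With the replicate number as a block (replicate block), 2339 genes were higher and 3506 lower, and 76 and 78 differed between genotypes. Genes near the nonspecific level have calls but little measurable signal.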
